A study of Mus musculus with 9 samples.

Results

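Interferon-stimulated genes and interferon regulatory factors (IRFs) were followed in mouse bone marrow-derived mast cells (BMMCs). The 41 genes were taken by name, with no threshold on their values, as 8 IRFs, Stat2 and 32 genes known for their induction by interferon, and all 41 were found among the 47643 genes counted. Of these, 38 had a median above 1 CPM (a library's counts scaled to a common total) over the libraries, as had 11560 genes in all, and could be tested. Irf4, Irf8 and Ifit3 were below that level. The BMMCs were grown from the marrow of C57BL/6 mice in WEHI-3-conditioned medium and fell into 3 groups with 3 libraries each. Control cells were untreated, IgE+BSA cells were stimulated through the IgE receptor with DNP-specific IgE and DNP-BSA as the antigen, and IgE+BSA+Luteolin cells also received luteolin, a flavone found in many plants, which the labels give as 10 μM for 24 h. The study describes luteolin both as given before the antigen and as given after it, and how the 24 h relate to the antigen was not clear from the sources used here. Nothing says that the replicates came from separate mice or cultures, so p-values measure only the spread between these libraries.

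Interferons bind receptors on the cell surface and act through the Janus kinases JAK1 and TYK2, which activate STAT proteins. Complexes that hold STAT2 and IRF9 bind the interferon-stimulated response element (ISRE), and STAT dimers bind the gamma-activated site (GAS). The genes that carry these elements encode sensors of viral nucleic acid, enzymes that degrade viral RNA, proteins that hold back viral entry or release, and the IRFs themselves. IRF3 and IRF7 start the transcription of interferons, whereas IRF1 is made in response to interferon gamma and to NF-κB.

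The sequenced depth lay between 9515004 counts (Control replicate 2) and 24605689 counts. A gene with 0 counts could still be present at up to 0.122 CPM in the deepest library and 0.315 CPM in the shallowest (3 counts, counting error only). All 12 mast cell markers were present in every library, with Kit at 1750 to 2479 CPM. Control replicate 1 stood apart from Control replicates 2 and 3. The summed level of 12 neutrophil markers was 311 CPM in Control replicate 1, 32.9 and 32.1 CPM in Control replicates 2 and 3, 236 to 256 CPM in IgE+BSA and 269 to 309 CPM in IgE+BSA+Luteolin. S100a9 was at 105 CPM in Control replicate 1 and at 0.967 and 0.906 CPM in the other two. The basophil protease Mcpt8 was at 432 CPM against 21.8 and 18.7 CPM, the eosinophil granule gene Prg2 at 31.5 CPM against 0.0967 and 0 CPM, and the mast cell protease Mcpt4 at 1752 CPM against 201 and 197 CPM. Other markers of the same lists were lower in Control replicate 1, among them Cd200r3 (688 CPM against 1044 and 1022 CPM), Siglecf (4.14 CPM against 12.9 and 10.1 CPM) and Tpsab1 (402 CPM against 732 and 697 CPM), and the basophil sum was 2388 CPM against 2271 and 2171 CPM. Control replicate 1 was the highest or lowest of the 9 libraries for 17 of the 38 genes (44.7%), beside 42.1% of all genes tested, so the calls against Control are given with and without it. Of the other cell types, summed markers were at 483 to 577 CPM for macrophages and monocytes, 57.3 to 90.2 CPM for dendritic cells, 1992 to 2395 CPM for basophils, 24.8 to 56.1 CPM for eosinophils and 2.76 to 3.63 CPM for B and T lymphocytes over the 9 libraries.

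Promoters of 6 genes that differed between IgE+BSA+Luteolin and IgE+BSA are shown because they carry a match to one of the elements through which interferon acts. Each sequence is the 250 bases before the transcription start in RefSeq (GRCm38.p6), read along the gene's own strand, with the matches in capitals. The letters searched on both strands were GAAA, 2 free bases and GAAA for the core of the ISRE and TTCNNNGAA for the core of the GAS. Rsad2 lies at chr12:26456453-26456702 on the minus strand, Irf1 at chr11:53769764-53770013 on the plus strand, Gbp3 at chr3:142559794-142560043 on the plus strand, Isg15 at chr4:156200819-156201068 on the minus strand, Gbp2 at chr3:142620413-142620662 on the plus strand and Bst2 at chr8:71537473-71537722 on the minus strand.
Rsad2: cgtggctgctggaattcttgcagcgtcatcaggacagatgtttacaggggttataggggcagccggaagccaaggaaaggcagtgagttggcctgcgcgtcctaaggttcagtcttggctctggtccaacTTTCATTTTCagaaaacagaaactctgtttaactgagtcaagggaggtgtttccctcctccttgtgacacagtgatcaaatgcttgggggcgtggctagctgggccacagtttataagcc
Irf1: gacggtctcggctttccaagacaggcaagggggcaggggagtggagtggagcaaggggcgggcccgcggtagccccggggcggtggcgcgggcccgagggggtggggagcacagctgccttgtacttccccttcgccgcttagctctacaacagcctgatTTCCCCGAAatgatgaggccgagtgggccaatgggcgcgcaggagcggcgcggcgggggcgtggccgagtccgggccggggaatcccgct
Gbp3: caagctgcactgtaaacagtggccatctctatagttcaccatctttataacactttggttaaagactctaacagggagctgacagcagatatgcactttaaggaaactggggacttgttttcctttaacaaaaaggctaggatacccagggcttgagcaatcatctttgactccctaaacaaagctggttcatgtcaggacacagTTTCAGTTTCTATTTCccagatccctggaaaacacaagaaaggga
Isg15: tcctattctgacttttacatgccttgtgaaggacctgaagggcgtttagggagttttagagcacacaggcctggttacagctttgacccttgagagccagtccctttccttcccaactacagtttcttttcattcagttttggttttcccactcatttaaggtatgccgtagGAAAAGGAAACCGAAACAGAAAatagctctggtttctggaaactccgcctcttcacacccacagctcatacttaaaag
Gbp2: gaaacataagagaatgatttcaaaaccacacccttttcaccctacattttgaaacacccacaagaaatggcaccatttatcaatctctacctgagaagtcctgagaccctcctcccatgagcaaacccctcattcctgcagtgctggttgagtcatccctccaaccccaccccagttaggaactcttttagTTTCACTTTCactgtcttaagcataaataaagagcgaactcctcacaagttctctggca
Bst2: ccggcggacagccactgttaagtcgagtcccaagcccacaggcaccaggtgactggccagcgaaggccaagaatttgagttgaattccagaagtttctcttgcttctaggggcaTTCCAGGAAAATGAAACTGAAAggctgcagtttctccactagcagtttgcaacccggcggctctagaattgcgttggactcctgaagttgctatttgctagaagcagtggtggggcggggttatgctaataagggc

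The Rsad2 promoter held an ISRE core that starts 120 bases before the transcription start. The Irf1 promoter shown held a GAS core at 90 bases and no ISRE core. In the Gbp3 promoter shown, ISRE cores at 45 and 39 bases overlapped each other. Another RefSeq promoter of Irf1 (chr11:53770223-53770472) and another of Gbp3 (chr3:142560106-142560355) held neither core. Isg15 held 3 overlapping ISRE cores at 78, 72 and 66 bases. Gbp2 held an ISRE core at 59 bases. In Bst2, a GAS core at 136 bases overlapped ISRE cores at 130 and 124 bases.

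Over the 33 genes of the list with a promoter in the RefSeq table, 13 held an ISRE core (39.4%), against 3.46% of 27025 genes with a promoter there (2.98% of 32851 promoters). A GAS core was found in 10 of the 33 (30.3%), against 8.13% of those genes (7.02% of promoters). In the comparison of IgE+BSA+Luteolin with IgE+BSA, the ISRE core was present in 3 of 6 genes that were lower with luteolin, in 2 of 4 that were higher, in 7 of 20 that did not pass the test, and in 1 of the 3 genes below the filter. Dhx58, Mx1, Oas2, Parp14, Parp9, Rtp4, Usp18 and Zbp1 had no entry. A match is a run of letters, and its absence from this window says nothing about the factor.

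The abundance of these genes differed widely. Per kilobase of exon, Ifitm3 and Bst2 were the most abundant in IgE+BSA, at 249 and 97.6 CPM per kilobase, and Oas2 was the least abundant of the 38 at 0.445. IFITM3 hinders the entry of viruses through endosomes, and BST2 (tetherin) holds budding viruses at the cell surface. The genes counted as interferons themselves were almost absent. Of 11 interferon genes, 7 had 0 counts in every library, and Ifnb1, Ifna4, Ifnz and Ifng had 1, 1, 3 and 4 counts in all 9 libraries together.

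**Figure D1:**
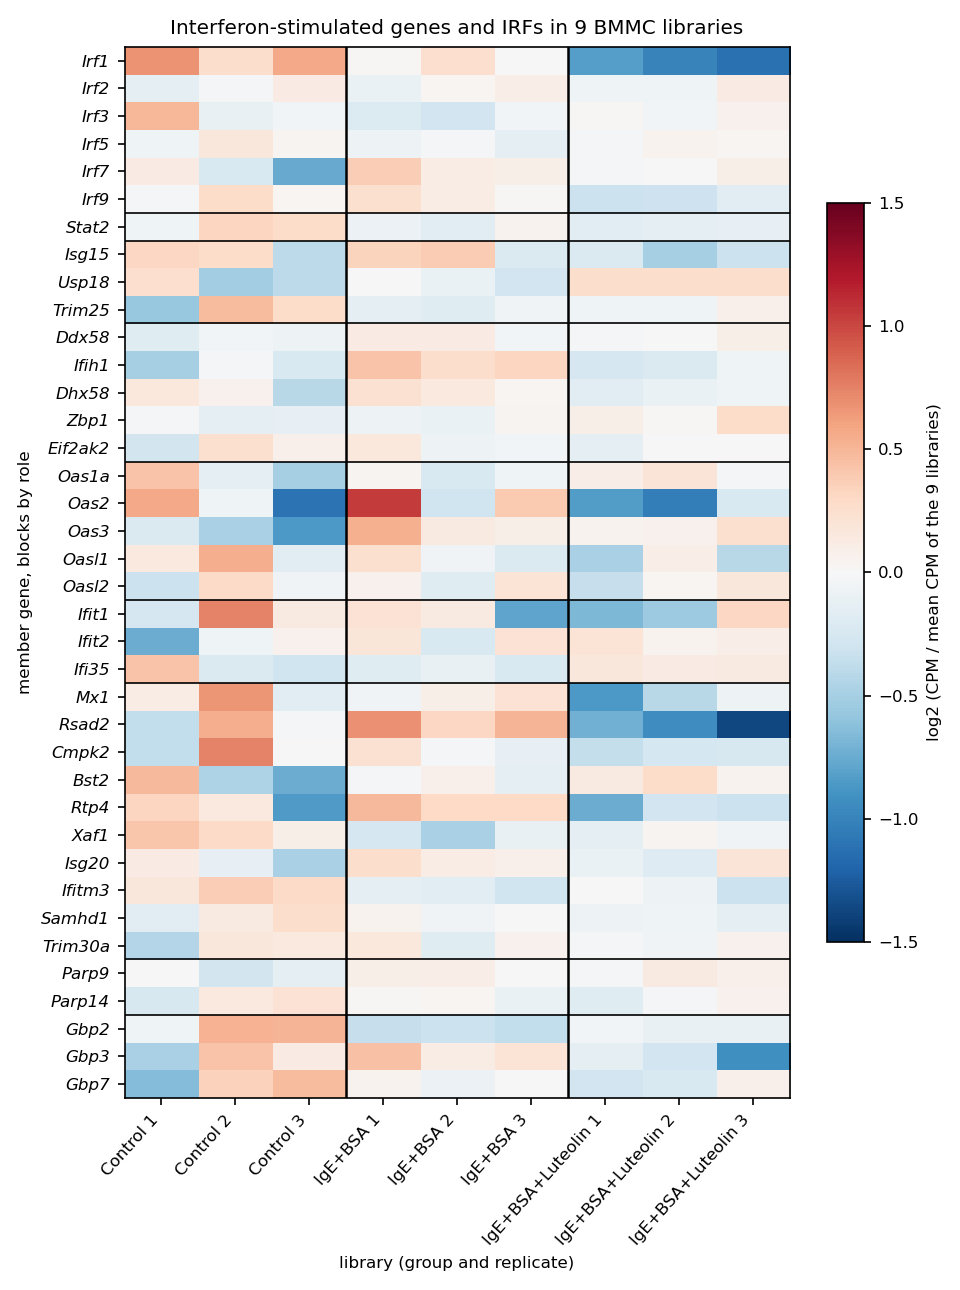
Level of the 38 interferon-stimulated genes and IRFs tested (rows, in blocks by role) in each of the 9 libraries (columns), as log2 of CPM over the gene's mean of the 9 libraries. Irf1 and Rsad2 were low in all 3 IgE+BSA+Luteolin libraries, and the 3 Control libraries differed among themselves in many rows.

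Luteolin was compared with the antigen alone to ask what it did in stimulated cells. Between IgE+BSA+Luteolin and IgE+BSA, 13 of the 38 genes passed an adjusted p of 0.05 in edgeR's quasi-likelihood test, and the list split in direction. Rsad2, Oas2, Irf1, Rtp4, Gbp3, Isg15, Ifih1 and Irf9 fell, and Usp18, Ifi35, Gbp2, Irf3 and Bst2 rose. The share that changed (34.2%) was near that of all genes tested (40.0%), and so were the share that fell (21.1%, against 21.9%) and the share that rose (13.2%, against 18.1%). Rsad2, Oas2 and Irf1 fell at least 2-fold, as did 5.23% of all genes tested. In other fits the log2 fold change was as small as -0.75 for Oas2 and -0.96 for Irf1, short of 2-fold. The libraries of the groups did not overlap for 14 genes of the list (36.8%), against 50.3% of all genes. The median log2 fold change was -0.07 over the list and 0.02 over all genes tested. In bulk RNA, fewer cells of a type and less RNA per cell cannot be told apart. Markers of several cell types also differed with luteolin. Of 12 mast cell markers, 6 rose and 3 fell. Their sum was 75621 to 86625 CPM with luteolin and 64466 to 70866 CPM without, most of it from the proteases Cpa3 and Tpsb2, which rose, whereas Hdc (histidine decarboxylase, which makes histamine) fell from a mean of 845 to 378 CPM and the tryptase gene Tpsab1 from 546 to 219 CPM. Of 5 basophil markers, 4 rose (sum 2204 to 2395 CPM, against 1992 to 2040 CPM), and of 11 neutrophil markers tested, 3 rose (269 to 309 CPM, against 236 to 256 CPM). The shares that passed were 75% for mast cell, 80% for basophil and 27.3% for neutrophil markers, against 40.0% of all genes. Of the markers tested, 1 of 7 for macrophages and monocytes (14.3%) and 1 of 4 for eosinophils (25%) fell. Of 4 dendritic cell markers and 1 lymphocyte marker tested, 0 passed. The part of these markers in the results was not tested. With library size alone as the scaling, which moved the median of all genes to 0.13, 7 genes fell and 9 rose, against 15.3% and 33.4% of all genes. With all 9 libraries in the fit, 3 genes fell (Rsad2, Irf1 and Ifih1) and 0 rose, against 9.46% of all genes.

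Among the IRFs, luteolin lowered Irf1 and Irf9 and raised Irf3. Irf1 encodes an activator of genes for antiviral defense and antigen presentation. Its level was 16.6, 19.6 and 16.5 CPM in IgE+BSA and 9.28, 8.22 and 7.59 CPM in IgE+BSA+Luteolin. The groups lay well apart, and the Control libraries, at 26.2, 19.7 and 24.4 CPM, were higher than both. Irf1 was thus 2.10-fold lower with luteolin (log2 fold change -1.07 ± 0.12 SE, adjusted p = 3.73e-06, n = 3 per group).

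Irf9 encodes the DNA-binding partner of STAT2. It measured 56.1, 51.4 and 48.1 CPM in IgE+BSA and 37.95, 38.3 and 42.6 CPM in IgE+BSA+Luteolin. The groups did not overlap, and Irf9 fell by 0.39 on the log2 scale (± 0.08 SE, adjusted p = 0.000932). Control libraries, at 46.9, 57.7 and 48.6 CPM, lay in the range of IgE+BSA or just outside it.

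Irf3 encodes the latent factor that starts interferon transcription. Its level was 49.2, 46.6 and 55.1 CPM in IgE+BSA and 57.6, 55.0 and 59.5 CPM in IgE+BSA+Luteolin. The ranges touched, and the rise was small (log2 fold change 0.19 ± 0.07 SE, adjusted p = 0.0466). This call was lost in DESeq2 and when any library other than IgE+BSA replicate 3 was left out, with a highest adjusted p of 0.474 over 16 alternatives. Control libraries of Irf3 were at 80.0, 52.3 and 55.2 CPM, so Control replicate 1 lay above all luteolin libraries.

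The remaining IRFs did not pass the test. Irf2, which encodes a competitor of IRF1 at the same sites, was at 42.1, 46.0 and 48.2 CPM in IgE+BSA and at 43.4, 43.1 and 49.2 CPM in IgE+BSA+Luteolin. Irf5, which acts in Toll-like receptor signaling, was at 27.0, 28.1 and 26.0 CPM in IgE+BSA and at 28.0, 29.5 and 29.2 CPM in IgE+BSA+Luteolin. Irf7, the factor for interferon alpha genes, was at 25.3, 21.3 and 20.9 CPM in IgE+BSA and at 19.2, 19.7 and 20.9 CPM in IgE+BSA+Luteolin. The intervals of the log2 differences (2 SE either way) ran from -0.16 to 0.15 for Irf2, from -0.06 to 0.26 for Irf5 and from -0.37 to 0.02 for Irf7. Stat2, the partner of IRF9, was at 29.5, 28.0 and 32.4 CPM in IgE+BSA and at 27.7, 28.4 and 28.8 CPM in IgE+BSA+Luteolin, with an interval from -0.24 to 0.09.

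Irf4 and Irf8, factors of lymphoid and myeloid cells, were below the filter. Irf4 had 28, 14 and 25 counts in the IgE+BSA libraries, 10, 8 and 14 counts in IgE+BSA+Luteolin, and 9, 30 and 42 counts in Control. Scaled to depth, Irf4 was at 0.700 to 1.27 CPM in IgE+BSA and 0.324 to 0.677 CPM in IgE+BSA+Luteolin, which did not overlap. With no filter, Irf4, Irf8 and Ifit3 did not pass the test in any of the 3 comparisons. Irf8 had 3 to 5 counts in IgE+BSA, 4 to 9 in IgE+BSA+Luteolin and 3 to 16 in Control.

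The genes of the ISG15 system, which attaches and removes a ubiquitin-like protein, moved apart. Isg15 encodes that protein, and it measured 9.77, 10.1 and 6.68 CPM in IgE+BSA and 6.67, 5.47 and 6.19 CPM in IgE+BSA+Luteolin. IgE+BSA replicate 3 lay just above the luteolin range. Isg15 fell by 0.53 on the log2 scale (± 0.17 SE, adjusted p = 0.0225). The call was lost with library size alone as the scaling, and without IgE+BSA replicate 1, IgE+BSA replicate 2 or IgE+BSA+Luteolin replicate 2 (highest adjusted p over the alternatives 0.195).

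Usp18 encodes the protease that removes ISG15 and also restrains the receptor for type I interferon. It was at 42.5, 39.5 and 34.5 CPM in IgE+BSA and at 50.9, 50.6 and 50.5 CPM in IgE+BSA+Luteolin. The luteolin libraries were all above the IgE+BSA range, and Usp18 was 1.31-fold higher (log2 fold change 0.39 ± 0.08 SE, adjusted p = 0.00107). Control libraries of Usp18 were at 50.2, 29.3 and 32.1 CPM, so Control replicate 1 lay just below the luteolin range. Trim25, an E3 ligase that modifies RIG-I, was at 29.0 ± 1.32 CPM in IgE+BSA and 31.1 ± 1.73 CPM in IgE+BSA+Luteolin (SD, n = 3) and did not pass the test.

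Of the 5 sensors of viral nucleic acid, Ifih1 alone passed the test. It encodes MDA5, a helicase that recognizes long double-stranded RNA. Its level was 27.0, 24.2 and 25.3 CPM in IgE+BSA and 16.9, 17.4 and 19.3 CPM in IgE+BSA+Luteolin. Every luteolin library was below every IgE+BSA library and within the Control range of 14.3 to 19.8 CPM. Ifih1 was lower with luteolin (log2 fold change -0.51 ± 0.09 SE, adjusted p = 0.000408). The other sensors had log2 fold changes from -0.25 for Dhx58 (adjusted p = 0.0909) to 0.17 for Zbp1 (adjusted p = 0.345). Ddx58, which encodes RIG-I, was at 68.7 ± 4.47 CPM in IgE+BSA and 66.6 ± 2.71 CPM in IgE+BSA+Luteolin.

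Oligoadenylate synthetases of the OAS family make the signal that activates RNase L. Of the 5 genes of this family on the list, Oas2 alone passed the test, at a level of few counts. It measured 2.94, 1.15 and 1.85 CPM in IgE+BSA and 0.793, 0.688 and 1.21 CPM in IgE+BSA+Luteolin. IgE+BSA replicate 2 lay within the luteolin range. Oas2 was 2.23-fold lower (log2 fold change -1.16 ± 0.39 SE, adjusted p = 0.0259), and the call was lost without IgE+BSA replicate 1, IgE+BSA+Luteolin replicate 1 or IgE+BSA+Luteolin replicate 2. Oas1a, Oas3, Oasl1 and Oasl2 had log2 fold changes from -0.24 to 0.18. For Oas1a, 57.6% of the 50-base words of its exons also occur in Oas1b or Oas1g, so its counts are uncertain.

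The IFIT proteins bind viral RNA and halt its translation. Ifit1 was at 2.24 ± 0.763 CPM in IgE+BSA and 2.02 ± 0.807 CPM in IgE+BSA+Luteolin, and Ifit2 was at 5.90 ± 0.958 CPM and 6.13 ± 0.357 CPM. Neither passed the test. Ifit3 had 7 counts over the IgE+BSA libraries, 2 over the luteolin libraries and 5 over Control, and shares 51.2% of its 50-base words with Ifit3b, which had 0 counts. Ifi35, whose product forms a complex with NMI, was at 23.2, 24.5 and 22.5 CPM in IgE+BSA and at 29.7, 28.8 and 28.8 CPM in IgE+BSA+Luteolin. All luteolin libraries exceeded the IgE+BSA range, and Ifi35 was 1.25-fold higher (log2 fold change 0.32 ± 0.08 SE, adjusted p = 0.00554). Control libraries of Ifi35 were at 35.6, 22.6 and 21.5 CPM, so Control replicate 1 lay above all luteolin libraries.

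Of the 10 further antiviral effectors, Rsad2 and Rtp4 fell and Bst2 rose. Rsad2 encodes viperin, a radical SAM enzyme that makes a chain-terminating nucleotide. Its level was 18.3, 14.1 and 16.2 CPM in IgE+BSA and 6.90, 5.95 and 4.40 CPM in IgE+BSA+Luteolin. The lowest IgE+BSA library was above the highest luteolin library, and Rsad2 was 2.80-fold lower (log2 fold change -1.49 ± 0.16 SE, adjusted p = 1.29e-06), the largest change among the 38 genes.

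Rtp4 encodes a chaperone of membrane receptors that is induced by interferon. It was at 10.4, 9.15 and 9.12 CPM in IgE+BSA and at 4.43, 6.07 and 5.95 CPM in IgE+BSA+Luteolin. The groups were apart, and Rtp4 was 1.73-fold lower (log2 fold change -0.79 ± 0.16 SE, adjusted p = 0.000934). Of its 50-base words, 11.6% also occur in another annotated gene.

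Bst2 was at 87.9, 94.97 and 81.6 CPM in IgE+BSA and at 98.6, 109 and 93.0 CPM in IgE+BSA+Luteolin. The ranges overlapped, and Bst2 rose by 0.19 on the log2 scale (± 0.07 SE, adjusted p = 0.0469). This call was lost in DESeq2 and without IgE+BSA replicate 1 or 3 or IgE+BSA+Luteolin replicate 1 or 2 (highest adjusted p over the alternatives 0.694). Control libraries of Bst2 were at 126, 65.3 and 53.8 CPM, so Control replicate 1 lay above all luteolin libraries. Cmpk2, the neighbor of Rsad2 on chromosome 12 that supplies its nucleotide substrate, was at 3.99 ± 0.518 CPM and 3.19 ± 0.137 CPM (log2 fold change -0.32 ± 0.21 SE, adjusted p = 0.239). Mx1 had a log2 fold change of -0.51 ± 0.25 SE (adjusted p = 0.115). Xaf1, Isg20, Ifitm3, Samhd1 and Trim30a had log2 fold changes from -0.18 to 0.22 and did not pass the test.

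The guanylate-binding proteins, GTPases that attack vacuoles of intracellular microbes, differed in direction. Gbp3 was at 10.2, 8.05 and 8.63 CPM in IgE+BSA and at 6.76, 6.12 and 3.96 CPM in IgE+BSA+Luteolin. The groups did not overlap, and Gbp3 fell by 0.67 on the log2 scale (± 0.19 SE, adjusted p = 0.00931), a call lost without IgE+BSA replicate 1. Gbp2 was at 19.1, 19.5 and 18.8 CPM in IgE+BSA and at 23.6, 22.6 and 22.5 CPM in IgE+BSA+Luteolin. The groups did not overlap here either, and Gbp2 was higher (log2 fold change 0.26 ± 0.09 SE, adjusted p = 0.0264), a call lost without IgE+BSA replicate 1 or 3 or IgE+BSA+Luteolin replicate 1 or 2. Gbp7 was at 42.1 ± 1.95 CPM and 38.5 ± 5.44 CPM and did not pass the test. Parp9 and Parp14, ADP-ribosyltransferases induced by interferon, had log2 fold changes of 0.00 ± 0.07 SE and -0.02 ± 0.08 SE, with intervals from -0.13 to 0.14 and from -0.18 to 0.14.

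**Figure D2:**
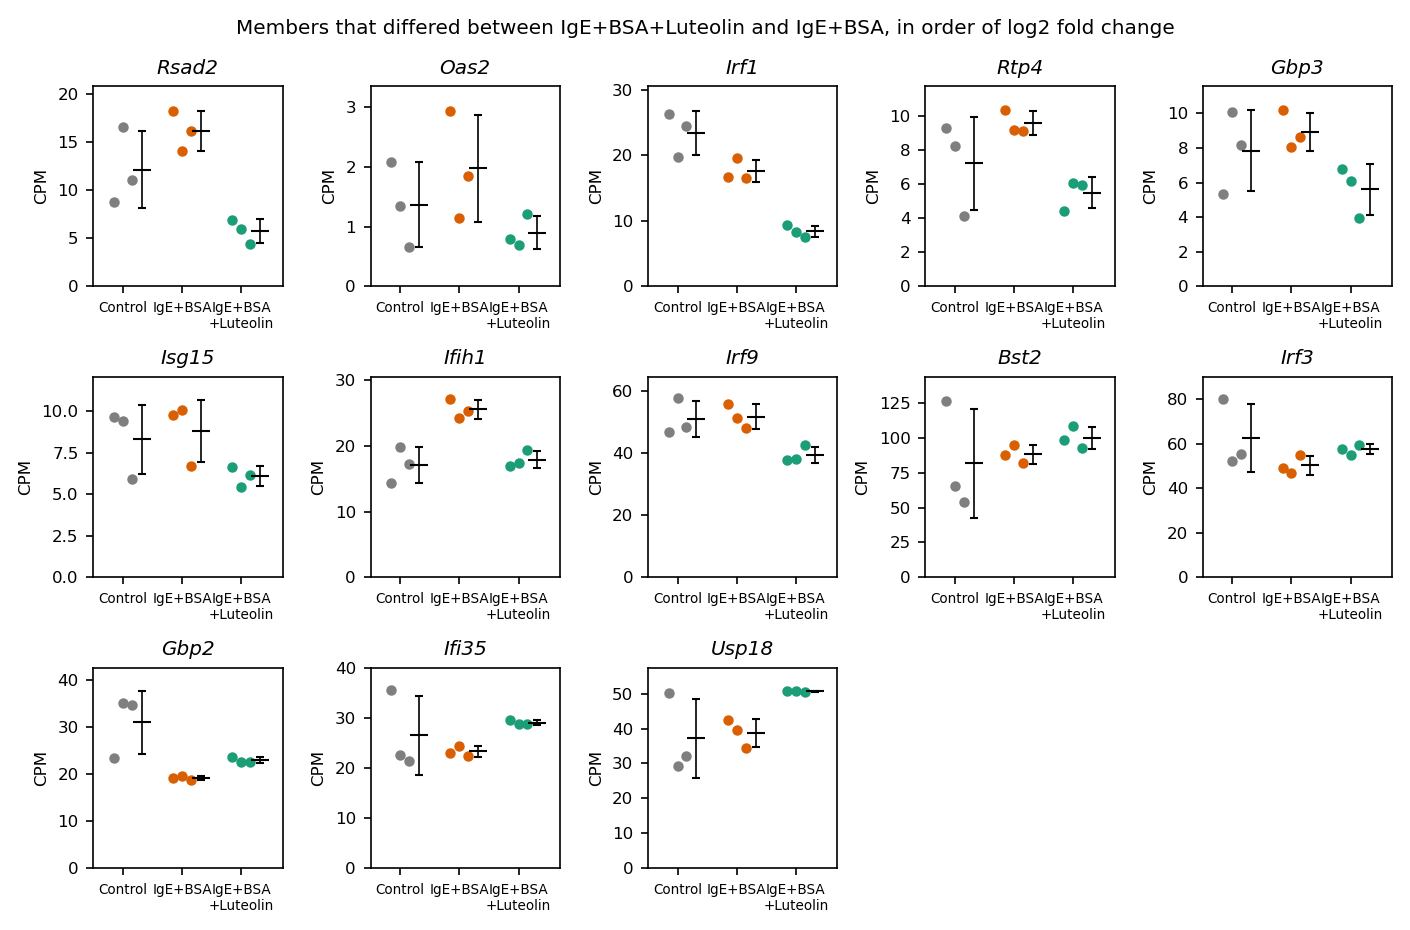
CPM of the 13 genes that differed between IgE+BSA+Luteolin and IgE+BSA, in order of log2 fold change; points are libraries and bars show the mean ± SD of each group (n = 3). Rsad2, Irf1, Rtp4, Gbp3, Isg15, Ifih1 and Irf9 were lower in all luteolin libraries than in all IgE+BSA libraries, Usp18, Ifi35 and Gbp2 were higher in all of them, and the ranges of Oas2, Bst2 and Irf3 overlapped.

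Stimulation by antigen was compared with untreated cells to ask from which level luteolin acted. Between IgE+BSA and Control, 0 of the 38 genes passed an adjusted p of 0.05 in edgeR's quasi-likelihood test, against 3.27% of all genes tested (1.02% lower and 2.25% higher). At an unadjusted p of 0.05, 6 genes passed (15.8%, against 20.4% of all genes). Limma called 0 (3.41% of all genes), and DESeq2 called 5 (10.6% of all genes), namely Gbp2, Ifitm3 and Xaf1 as lower and Ifih1 and Oas3 as higher. These 5 and Irf1 were the 6 genes whose libraries did not overlap between the groups (15.8%, against 28.7% of all genes). The median log2 fold change was 0.02 over the list and 0.02 over all genes tested.

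The largest differences were in Oas3 and Gbp2. Oas3 was at 8.86, 7.35 and 5.68 CPM in Control and at 14.9, 11.3 and 10.9 CPM in IgE+BSA (log2 fold change 0.76 ± 0.22 SE, adjusted p = 0.121). Gbp2 was at 23.3, 35.0 and 34.7 CPM in Control and at 19.1, 19.5 and 18.8 CPM in IgE+BSA (log2 fold change -0.69 ± 0.17 SE, adjusted p = 0.0820). Without Control replicate 1 both passed, Oas3 at 0.91 ± 0.19 SE (adjusted p = 0.00131) and Gbp2 at -0.91 ± 0.09 SE (adjusted p = 3.19e-06). Against Control replicate 1 alone the log2 fold changes of Oas3 and Gbp2 were 0.46 and -0.30. In Gbp2, Control replicate 1 lay closer to IgE+BSA than to its own group. Ifih1 had a log2 fold change of 0.58 ± 0.15 SE (adjusted p = 0.0844), Ifitm3 of -0.48 ± 0.10 SE (adjusted p = 0.0602), Xaf1, which encodes an antagonist of the caspase inhibitor XIAP, of -0.54 ± 0.17 SE (adjusted p = 0.146) and Irf1 of -0.42 ± 0.16 SE (adjusted p = 0.188). Irf7 was at 21.4, 16.7 and 11.6 CPM in Control, a wider spread than in either other group. Stat2 was at 30.0, 39.1 and 37.9 CPM in Control, with the first replicate at the level of IgE+BSA. Irf2 and Irf5 were at 41.3, 44.1 and 49.3 CPM and at 27.2, 32.02 and 29.4 CPM in Control, and Irf3 was at 80.0, 52.3 and 55.2 CPM.

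The count of changed genes rested on which Control libraries entered the fit. Without Control replicate 1, 9 genes of the list were lower and 8 higher in IgE+BSA, against 45.0% of all genes (22.4% lower and 22.6% higher). With Control replicate 1 as the lone Control library, a choice made after seeing the data that assumes it varies like the other libraries, 8 were lower and 7 higher, against 42.3% of all genes (19.2% lower and 23.1% higher). Without Control replicate 2 or 3, 0 genes of the list passed, against 1.15% and 1.19% of all genes.

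These calls follow from where Control replicate 1 lay, and they are described without a test of their likeness, since both fits share the IgE+BSA libraries. In Irf1, Ifitm3 and Xaf1 all 3 Control libraries were above the IgE+BSA libraries, and in Ifih1 all 3 were below. The log2 fold change of Irf1 was -0.40 ± 0.12 SE without Control replicate 1, and the one of Ifih1 was 0.43 ± 0.11 SE. In other genes Control replicate 1 lay on the far side of IgE+BSA from its own group. Bst2 was at 126 CPM in Control replicate 1, above all IgE+BSA libraries, and at 65.3 and 53.8 CPM in the other two, below all of them. Its log2 fold change was 0.53 ± 0.09 SE without replicate 1. Gbp7 was at 27.0 CPM in Control replicate 1, below all IgE+BSA libraries, and at 53.7 and 59.2 CPM in the other two, above all of them. Its log2 fold change was -0.48 ± 0.08 SE without replicate 1. Usp18 and Trim25 were split in the same manner.

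**Figure D3:**
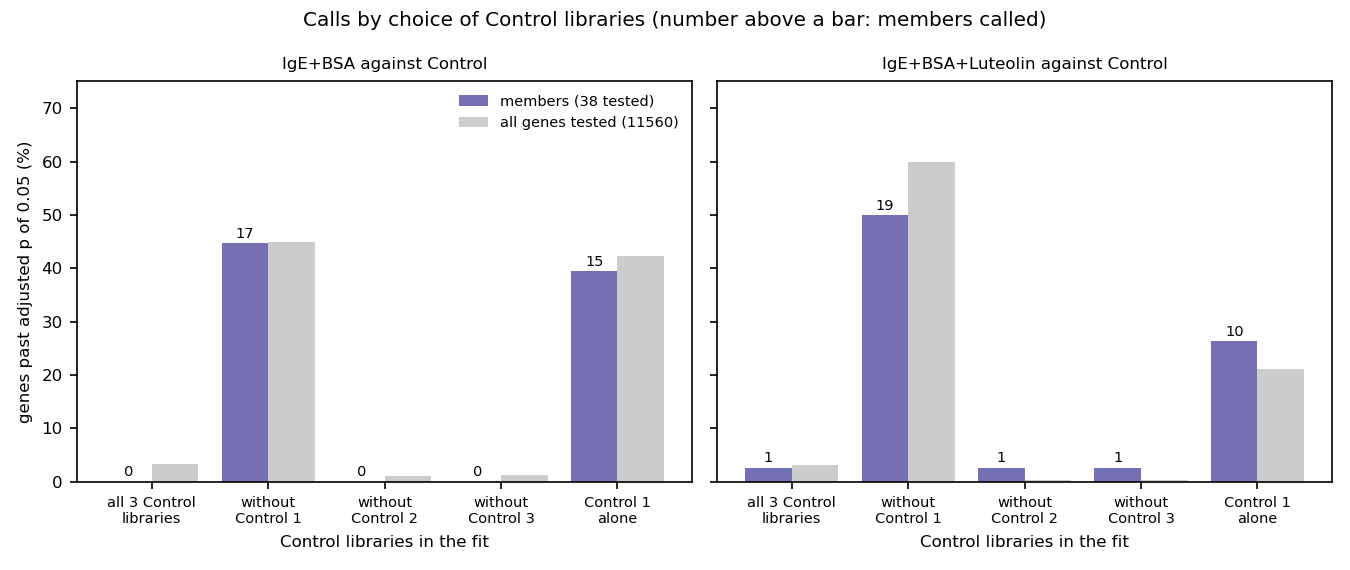
Share of genes past an adjusted p of 0.05 (%) for the 38 genes of the list and for all 11560 genes tested, by the Control libraries in the fit; the number above a bar is the count of genes of the list. With IgE+BSA against Control (left) the count was 0 with all Control libraries, 17 without Control replicate 1 and 15 against it alone, and with IgE+BSA+Luteolin against Control (right) it was 1, 19 and 10.

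The cells with antigen and luteolin were also set against untreated cells, a comparison that shares its libraries with both others. Of the 38 genes, 1 passed the test, Irf1, against 3.04% of all genes tested (2.75% lower and 0.285% higher). At an unadjusted p of 0.05, 7 genes passed (18.4%, against 22.9% of all genes). Irf1 was 2.82-fold lower than in Control (log2 fold change -1.496 ± 0.16 SE, adjusted p = 0.00869). Its 3 luteolin libraries were below all 3 Control libraries, and the log2 fold change was -1.43 ± 0.14 SE with Control replicate 1 left out. The call was lost without any luteolin replicate, where 0 genes of the list and 0.0173% to 0.216% of all genes passed. Over the alternatives the log2 fold change of Irf1 stayed between -1.65 and -1.43, with a highest adjusted p of 0.0927.

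Rsad2, which luteolin lowered against IgE+BSA, had a log2 fold change of -1.07 ± 0.28 SE against Control (adjusted p = 0.0920). Its Control libraries were at 8.81, 16.5 and 11.1 CPM, all above the luteolin libraries. Without Control replicate 1 the log2 fold change of Rsad2 was -1.24 ± 0.20 SE (adjusted p = 6.06e-05), and against Control replicate 1 alone it was -0.61. Rsad2 also passed in DESeq2, with no filter and with all 9 libraries in the fit. Ifih1 was at 17.1 ± 2.76 CPM in Control and 17.9 ± 1.28 CPM in IgE+BSA+Luteolin (log2 fold change 0.06 ± 0.16 SE, interval from -0.25 to 0.38). Irf9 had a log2 fold change of -0.37 ± 0.13 SE (adjusted p = 0.153) and Usp18 one of 0.44 ± 0.20 SE (adjusted p = 0.240). Without Control replicate 1 both passed, Irf9 at -0.43 ± 0.09 SE (adjusted p = 0.000941) and Usp18 at 0.70 ± 0.09 SE (adjusted p = 2.94e-06). Against Control replicate 1 alone the log2 fold changes of Irf9 and Usp18 were -0.24 and 0.01. The libraries of the groups did not overlap for 10 genes of the list (26.3%), against 28.5% of all genes. The median log2 fold change was -0.12 over the list and 0.01 over all genes tested. Without Control replicate 1, 12 genes were lower and 7 higher, against 60.0% of all genes (30.1% lower and 29.9% higher). Against that replicate alone 6 were lower and 4 higher, against 21.2% (9.55% lower and 11.6% higher). Without Control replicate 2 or 3, Irf1 alone passed, against 0.407% and 0.355% of all genes.

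**Figure D4:**
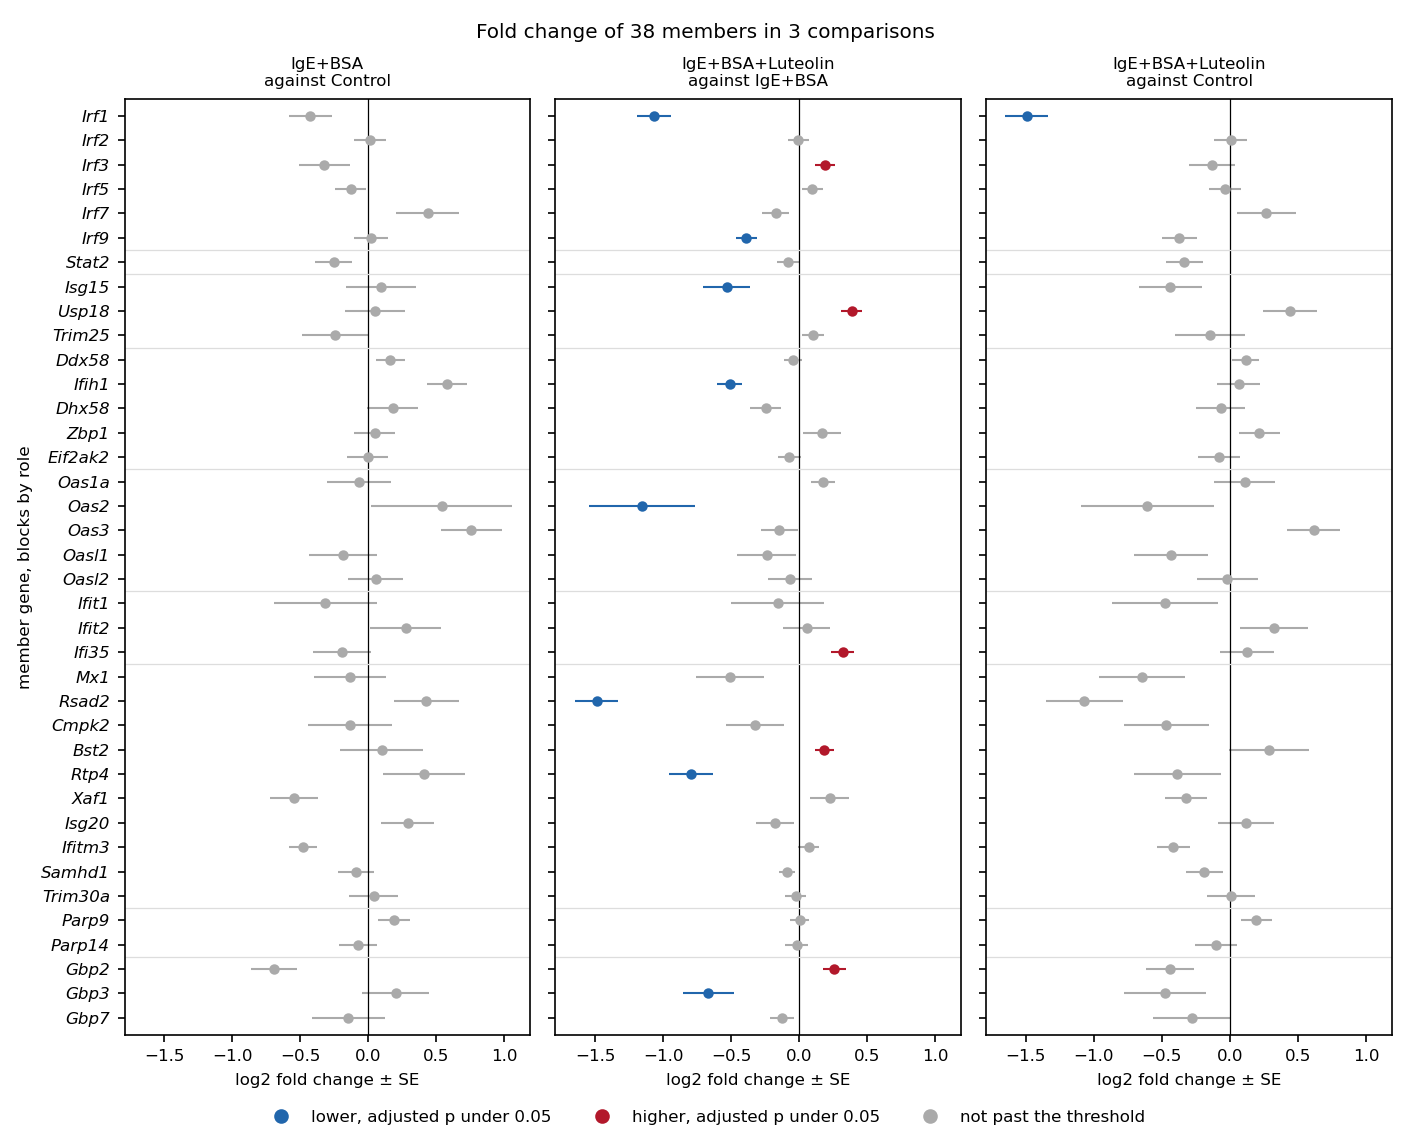
Log2 fold change ± SE of the 38 genes (rows, in blocks by role) in the 3 comparisons, with colored points for an adjusted p under 0.05 (edgeR's quasi-likelihood test). Of IgE+BSA against Control, 0 points are colored; of IgE+BSA+Luteolin against IgE+BSA, 8 lower and 5 higher; of IgE+BSA+Luteolin against Control, Irf1 alone. The SE is wider in the comparisons with Control for most genes.

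The rest of the pathway was described from lists of other genes. Of 11 genes for receptor chains, kinases and STATs, 10 were tested, and between IgE+BSA+Luteolin and IgE+BSA 3 rose and 2 fell (30% and 20%, against 18.1% and 21.9% of all genes). Il10rb, a chain of the receptor for interferon lambda, had a log2 fold change of 0.51 ± 0.11 SE, and Ifngr2, a chain of the receptor for interferon gamma, one of 0.40 ± 0.10 SE. Jak1 fell by 0.34 on the log2 scale (± 0.06 SE).

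Of 15 sensors, adaptors and kinases that act before IRF3 and IRF7, 12 were tested, and 5 fell and 2 rose (41.7% and 16.7%, against 21.9% and 18.1% of all genes). Traf6, a ubiquitin ligase of Toll-like receptor signaling, was at 34.8, 32.01 and 34.7 CPM in IgE+BSA and at 12.0, 14.5 and 17.3 CPM in IgE+BSA+Luteolin, and fell by 1.21 on the log2 scale (± 0.11 SE, adjusted p = 1.80e-07). Traf3, which recruits the kinase TBK1, fell by 0.59 on the log2 scale (± 0.10 SE), and Myd88 and Tmem173, the adaptor known as STING, rose by 0.37 (± 0.07 SE) and 0.33 (± 0.08 SE).

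Of 15 inhibitors of interferon signaling, 14 were tested, and 5 fell and 1 rose (35.7% and 7.14%, against 21.9% and 18.1% of all genes). Socs3, an inhibitor of JAK kinases, was at 60.1, 63.6 and 58.6 CPM in IgE+BSA and at 15.5, 16.1 and 18.5 CPM in IgE+BSA+Luteolin, and fell by 1.86 on the log2 scale (± 0.08 SE, adjusted p = 1.13e-11). Cish, a feedback inhibitor of STAT5, fell by 1.03 (± 0.06 SE) and Irf2bp2, a corepressor that binds IRF2, by 0.61 (± 0.06 SE). Pias4, an E3 ligase for SUMO that inhibits STAT proteins, rose by 0.42 (± 0.09 SE). In IgE+BSA over Control, 3 genes of this list rose, Socs3, Cish and Tnfaip3, which encodes A20, by 1.17, 1.03 and 1.69 on the log2 scale (21.4% of the list, against 2.25% of all genes). Without Control replicate 1 the values were 1.33, 1.08 and 1.62.

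Of 58 further interferon-stimulated genes, 48 were tested, and 17 rose and 7 fell with luteolin, whereas 18.1% of all genes tested rose and 21.9% fell. The median log2 fold change was 0.11. The 4 with the largest changes, Gbp4, Slfn2, Slfn5 and Gbp9, fell by 0.96, 0.48, 0.46 and 0.46 on the log2 scale, whereas most of the list that changed rose. Gbp4 was at 92.1 to 120 CPM in IgE+BSA and 49.6 to 60.9 CPM in IgE+BSA+Luteolin. This gene was also lower in IgE+BSA+Luteolin than in Control (log2 fold change -1.48 ± 0.29 SE, adjusted p = 0.0460), with Control replicates at 85.1, 187 and 182 CPM. Without Control replicate 1 its log2 fold change was -1.77 ± 0.08 SE.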

How the data were processed

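RNA-seq libraries of BMMCs (3 per group) were described by the authors as made with a stranded mRNA kit, cleaned with HTStream and aligned with STAR 2.7.0f (build mm10). The values are the deposited counts, which are raw whole-number read counts per gene. The counting strand, the annotation release and the treatment of multi-mapping reads are not given in the sources used here. Of 47643 genes, 24256 were at 0 in every library, and 47224 IDs were matched to GENCODE names (GRCm38).

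Genes with a median above 1 CPM over the 9 libraries (11560) were tested with edgeR 4.0.16 in R 4.3.3 (TMM factors, quasi-likelihood test, two-sided, Benjamini-Hochberg adjustment over all genes tested, threshold 0.05), with only the groups compared in the fit. CPM values are TMM-scaled, SE is that of the log2 fold change, and intervals are 2 SE either way. Alternatives were DESeq2 1.42.0, limma 3.58.1 (the authors' tool), other scalings, filters and a stricter threshold, all 9 libraries in the fit, a replicate block and leaving out each library. On simulated data, 92.5% of 200 genes changed 2-fold were recovered for IgE+BSA+Luteolin against IgE+BSA, 57.5% for IgE+BSA against Control and 51% for IgE+BSA+Luteolin against Control (8.42%, 8.73% and 1.92% of calls were false), among 11560 genes.

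The members and lists were chosen with earlier results of these data known. Full values are given for members past the threshold, for all IRFs and Stat2 and for members below the filter, and for at most 4 genes of each other list by size of change with luteolin; further genes were named after their values were seen. A further gene is not reported here.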

Additional observations from a re-analysis of the deposited data

How the results depend on the processing

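Between IgE+BSA+Luteolin and IgE+BSA, where 8 genes were lower and 5 higher, Irf1, Rsad2 and Ifih1 passed in all 16 alternatives (highest adjusted p 0.00113, 0.00384 and 0.0391), and Irf9, Rtp4, Usp18 and Ifi35 in 15, failing only with all 9 libraries in the fit. The genes lower numbered 3 with all 9 libraries in the fit (7.93% of all genes) and 5 to 10 with a library left out (17.6% to 24.0%). The genes higher numbered 3 in DESeq2 (16.9%), 9 with library size alone (33.4%), 0 with all 9 libraries (1.52%), 2 at an adjusted p of 0.01 (9.5%) and 2 to 5 with a library left out (10.5% to 19.9%). Library size alone moved the median log2 fold change of all genes from 0.02 to 0.13 and that of the list from -0.07 to 0.04. Between IgE+BSA and Control, the genes lower numbered 3 in DESeq2 (5.43% of all genes), 1 with library size alone (2.55%), upper-quartile factors (1.57%) or RLE factors (1.18%), each time Ifitm3, 2 with all 9 libraries (3.73%), 0 to 9 with a library left out (9 without Control replicate 1, 22.4%) and 8 against Control replicate 1 alone (19.2%), which was chosen after seeing the data. The genes higher numbered 2 in DESeq2 (5.18%), 2 with all 9 libraries (5.83%), 0 to 8 with a library left out (0.753% to 22.6%) and 7 against Control replicate 1 alone (23.1%). Between IgE+BSA+Luteolin and Control, the genes lower numbered 3 in DESeq2 (8.89%), 2 with no filter (3.18%), 3 with all 9 libraries (7.72%), 0 to 12 with a library left out (0.0173% to 30.1%) and 6 against Control replicate 1 alone (9.55%), and the genes higher 0 to 7 with a library left out (0% to 29.9%) and 4 against Control replicate 1 alone (11.6%). Some genes that passed without Control replicate 1 had the opposite sign against Control replicate 1 alone. That fit holds 1 Control library, so only signs and sizes are given. The log2 fold change turned negative for Usp18 (-0.39) and Bst2 (-0.54) in IgE+BSA, and for Bst2 (-0.34) in IgE+BSA+Luteolin. It turned positive for Gbp7 and Trim25 in both comparisons (0.62 and 0.43 in IgE+BSA, 0.51 and 0.55 in IgE+BSA+Luteolin). Samhd1 and Parp14 also turned positive in both comparisons. In IgE+BSA+Luteolin, Cmpk2 and Gbp3 turned positive and Ifi35, Irf7 and Oas1a negative. Control replicate 1 differed over 1.5-fold from the mean of Control replicates 2 and 3 in 39.5% of the list and 36.0% of all genes tested. The cause of these shifts was not tested. A fit with the replicate block gave 8 lower and 5 higher (48.3% of all genes), 0 and 0 (1.25%), and 1 and 0 (1.83%) in the order above. Correlations of same-numbered libraries ran from -0.02 to 0.28 between IgE+BSA and IgE+BSA+Luteolin (mean 0.145, against -0.07 for unlike numbers), from -0.26 to 0.24 between IgE+BSA and Control and from -0.12 to 0.31 between IgE+BSA+Luteolin and Control, and the labels tie the numbers to no shared mouse or day, so they were not taken as pairs. Depth limits Oas2, Ifit1, Irf4, Irf8 and Ifit3 most.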
